A study of Rattus with 27 samples.

Results

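Genes of the cell cycle and of DNA replication were followed in the spleen, the white blood cells and the brain of rats 6 h after an ischaemic stroke or a sham operation. The set was a written list of 45 genes, of which 40 had a probe that the array's gene table assigned to a single symbol, out of 14506 genes measured in this way. Mki67, Mcm3, Mcm4, Cenpe and Cenpf were not listed by the table and are not described. The 40 measured genes were grouped by role: 3 of the G1 to S transition (E2f1, Ccne1, Ccne2), 5 of nucleotide supply, 9 of replication licensing and the fork, 9 mitotic kinases and cyclins with the transcription factor Foxm1, 8 of the checkpoint, anaphase and kinetochore, and 6 spindle and cytokinesis proteins.

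A cell that divides first commits to DNA synthesis, when E2F factors and cyclin E switch on the genes for nucleotides and replication. It then copies its genome with a helicase built from Mcm proteins, and in mitosis Cdk1 with its cyclins, the Aurora and Polo kinases, the kinetochore and the spindle separate the copies. Most of these genes are transcribed only in cycling cells, so their level in a tissue is widely read as a proliferation signature. In rodents the spleen holds dividing lymphocytes and dividing red cell precursors, blood leukocytes are mostly not dividing, and most neurons of the adult brain have left the cycle.

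The study used Sprague Dawley rats, 9 in all, and took 3 tissues from each, giving 27 arrays. All groups were sampled at 6 h. The groups are called by their sample titles, vehicle, model and sham, with 3 rats each. Vehicle and model rats had middle cerebral artery occlusion (MCAO), which blocks the main artery to the side of the brain, and sham rats had anaesthesia and separation of the vessel without occlusion. The protocol speaks of sham, of vehicle control and of YJ (25 mg/kg), whereas the titles say sham, vehicle and model, and no label links the 2 sets of names. The labels do not settle which rats received YJ, and vehicle against model is given here as a difference between titled groups. Brain and spleen were homogenized whole, and white blood cells were separated from blood. The age and sex of the rats are not given in the sources used here.

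Values are log2 array intensities, on which a difference of 1 is a doubling. A gene is called where limma's moderated test, fitted over all genes, gave an adjusted p under 0.05. Each p rests on the spread between rats within groups, pooled over all groups of the fit and moderated over genes. Comparisons between tissues took the arrays of 1 rat as independent. Levels of different genes are not compared, since probes differ in brightness. The tissues carried the markers of their labels in sham rats: 8 of 8 neuron markers were called lower in spleen and in white blood cells than in brain, and 11 of 11 T cell markers and 7 of 7 measured B cell markers were called higher. Array medians lay between 4.96 and 5.31. The highest in each tissue were the spleens of vehicle rat 2 (5.31) and model rat 2 (5.27), the brain of model rat 2 (5.24) and the white blood cells of sham rat 3 (5.23).

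In sham rats the spleen stood far above the other tissues. Of the 40 members, 39 were called higher in spleen than in white blood cells (19.3% of all genes were, and 19.7% lower), with a median difference of 2.42, and 40 were called higher in spleen than in brain (27.4% of all genes, and 26.3% lower), with a median of 2.83. The median over all genes was -0.12 in the first comparison and 0.02 in the second. The largest difference from brain was that of Rrm2, the small subunit of ribonucleotide reductase, which makes deoxynucleotides. Rrm2 read 9.06, 9.15 and 9.46 in the 3 sham spleens, 6.05, 6.10 and 6.15 in sham white blood cells and 4.45, 4.34 and 4.47 in sham brain, and no array of one tissue reached the next. The spleen exceeded the brain by 4.80 ± 0.21 (SE, limma, adjusted p = 9.76e-16).

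Top2a, the topoisomerase that untangles replicated DNA, was higher in sham spleen than in sham brain by 4.74 ± 0.25. Nusap1, a protein that bundles spindle microtubules, was higher by 4.50 ± 0.22, and Ccnb2, a B-type cyclin of Cdk1, by 4.48 ± 0.27. At the other end were E2f1, the transcription factor of S-phase entry, with 0.54 ± 0.15 (adjusted p = 0.00318), and the kinase gene Melk with 0.91 ± 0.17. E2f1 was also the member not called between spleen and white blood cells, at 0.34 ± 0.15 (adjusted p = 0.0702). By role, the median difference between spleen and brain ran from 1.71 for the G1 to S genes to 3.59 for the spindle and cytokinesis genes.

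White blood cells and brain lay closer together. In sham rats 19 members were called higher in white blood cells than in brain (31.1% of all genes) and 3 lower (28% of all genes), with a median of 0.47 against 0.12 over all genes. The helicase genes Mcm6, Mcm5 and Mcm2 were higher in white blood cells by 1.60, 1.42 and 1.30, and Rrm2 by 1.68. The 3 called lower in white blood cells were Dut, which clears dUTP, at -0.99 ± 0.27, Tyms, which makes thymidylate, at -0.98 ± 0.30, and Ccne2, a cyclin E, at -0.98 ± 0.37. Leaving out sham rat 4 reduced the members called between white blood cells and brain from 22 to 14. The kinetochore and checkpoint genes Ttk (0.06 ± 0.29) and Nuf2 (0.24 ± 0.21) were not called between these tissues. Both read low in these sham arrays, Ttk at 2.76 to 3.05 and Nuf2 at 3.22 to 3.61, and they do not stand for their role.

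**Figure D1:**
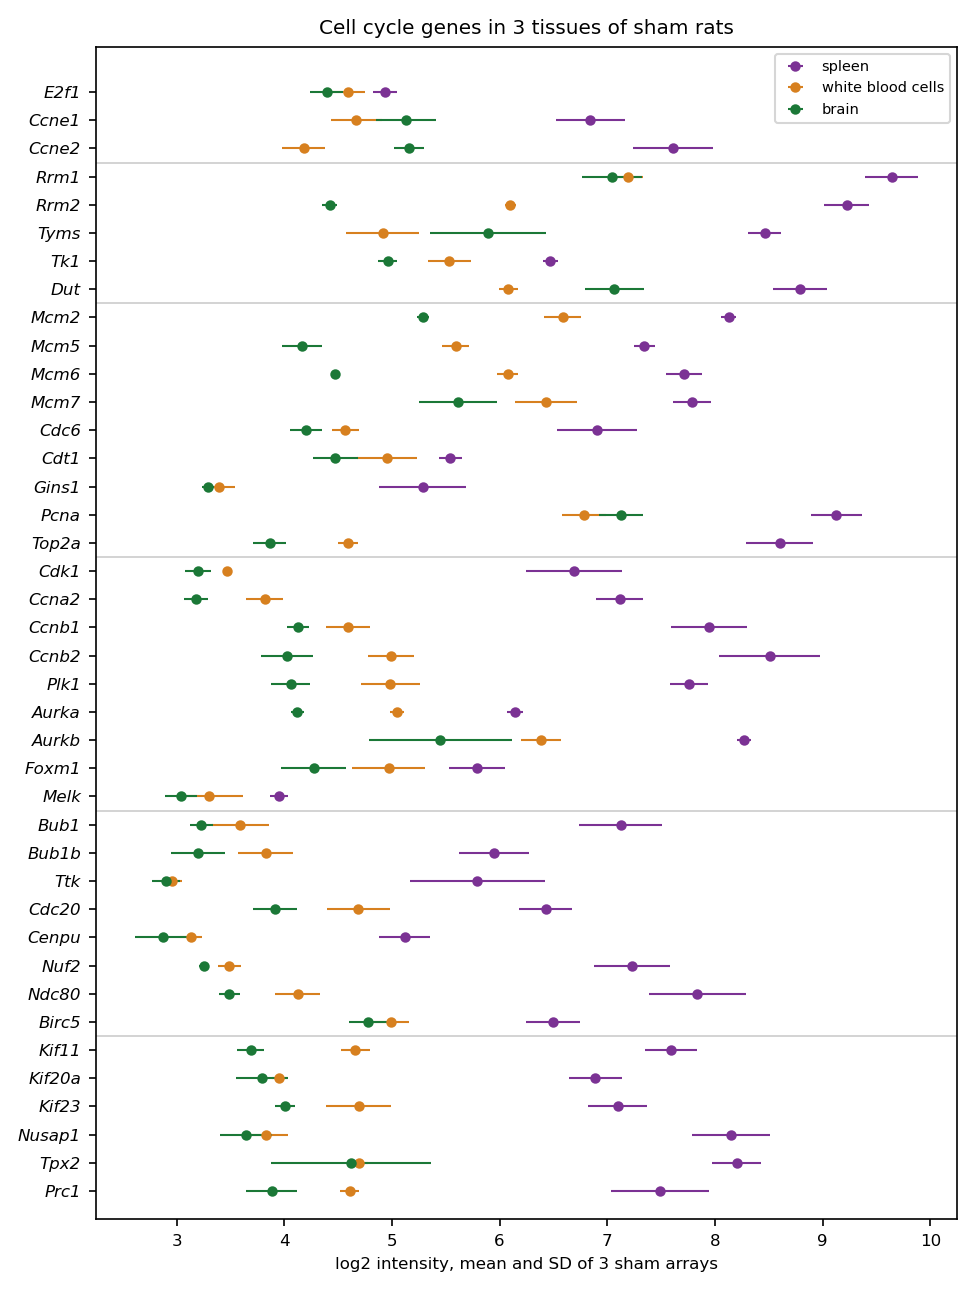
Log2 intensity (horizontal axis) of the 40 measured cell cycle and replication genes in sham rats, as the mean of 3 arrays with its SD, for spleen, white blood cells and brain. Genes run down the page by role, with grey lines between roles. The spleen points lie to the right of both other tissues for every gene, from Rrm2 (4.80 above brain) to E2f1 (0.54 above brain).

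The rest of the pathway, taken from wider lists, showed the same order of spleen over the other tissues in most genes. Of 43 other mitosis genes, 40 were called higher and 1 lower in spleen than in white blood cells, and 41 higher and 1 lower in spleen than in brain. Of 37 other replication genes, 27 and 32 were called higher in these comparisons, and 0 and 1 lower. Of 16 G1 cyclins, their kinases and E2F or Myb factors, 9 and 11 were called higher. Cell cycle inhibitors and pocket proteins were called higher in 4 and 9 of 15. Red cell precursor markers were also higher in spleen than in white blood cells, 14 of 16, while 9 of 11 T cell and 8 of 8 natural killer cell markers were lower there. In tissue RNA, fewer cells of a type and less RNA per cell cannot be told apart.

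In the spleen, model rats had lower levels of nearly all members than sham rats, but a single one passed the test. The median difference over the 40 members was -0.72 against 0.07 over all genes, 39 were below 0, and Cenpu alone was called (0.00689% of all genes were called lower, and 0.0345% higher). In 27 members every model array lay below every sham array (3.96% of all genes did so), and 31 had an unadjusted p under 0.05 in this direction (2.74% of all genes). In the opposite direction 0 members passed either criterion, where 13.4% of all genes were higher without overlap and 6.76% had an unadjusted p under 0.05. Cenpu, a protein of the inner kinetochore that sits on the centromere, read 3.75, 3.71 and 3.64 in the spleens of model rats 1, 2 and 3, against 4.84, 5.27 and 5.24 in those of sham rats 3, 4 and 5. The 3 model values lay within 0.11 of one another and well under the lowest sham value. Cenpu fell by 1.42 ± 0.17 (SE), a 2.67-fold difference, with an adjusted p of 0.0343 in limma.

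The call for Cenpu did not survive every change of the arrays. Its difference stayed between -1.56 and -1.34 when each rat was left out in turn, but the adjusted p was 0.0545 without vehicle rat 2, 0.0656, 0.0773 and 0.101 without model rats 1, 2 and 3, and 0.17 and 0.154 without sham rats 4 and 5. Median centring of the arrays gave an adjusted p of 0.0504, and a fit of all 27 arrays, which borrows the spread of the other tissues, gave 6.18e-05 and called 5 more members (Nusap1, Nuf2, Cdk1, Ccnb2 and Bub1). What share of all genes the fit of 27 arrays called is not given here.

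The kinetochore and checkpoint genes had a median of -0.93 between model and sham spleens, and all 8 were below 0, 7 of them without overlap. Bub1, a checkpoint kinase, read 6.08, 6.52 and 6.42 in model spleens and 6.81, 7.01 and 7.55 in sham spleens, a difference of -0.78 ± 0.19 (adjusted p = 0.211). Nuf2, which with Ndc80 joins kinetochores to microtubules, read 5.84, 6.69 and 5.89 in model spleens and 7.01, 7.05 and 7.64 in sham spleens, with a difference of -1.09 ± 0.27 (adjusted p = 0.224). In both genes all model values lay below the sham values, and for Nuf2 model rat 2 came closest. Ndc80 differed by -1.06, Bub1b by -0.80, Cdc20, which starts anaphase, by -0.78 and Birc5, of the chromosomal passenger complex, by -0.63. Ttk, the kinase that starts the checkpoint, had a difference of -1.21 with overlap, since model rat 2 (5.53) lay above sham rat 3 (5.25).

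Among the spindle proteins the median was -0.75. Nusap1 read 7.17, 6.84 and 6.86 in model spleens against 7.84, 8.05 and 8.55 in sham spleens, and differed by -1.19 ± 0.25 (adjusted p = 0.18). The groups were separate, with 0.67 between the nearest values. Prc1, which bundles the midzone of the spindle, differed by -0.91, Tpx2, a spindle assembly factor that activates Aurora A, by -0.80, and the motor genes Kif11, Kif23 and Kif20a by -0.70, -0.63 and -0.57.

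The mitotic kinases and cyclins had a median of -0.67. Cdk1, the kinase that drives entry into mitosis, read 5.78, 5.94 and 5.49 in model spleens and 6.25, 6.67 and 7.14 in sham spleens, a difference of -0.95 ± 0.21 (adjusted p = 0.211). Its partner Ccnb2 read 6.91, 7.71 and 7.07 in model spleens and 8.04, 8.50 and 8.98 in sham spleens, and differed by -1.28 ± 0.34 (adjusted p = 0.263). All model values of both genes were below the lowest sham value. Ccnb1 differed by -0.93, the cyclin A gene Ccna2 by -0.79, Plk1 and Aurka by -0.67 each, Aurkb by -0.47 and Foxm1, which drives genes of G2 and mitosis, by -0.36. Melk was the exception of the whole set, with 3.91, 4.31 and 4.36 in model spleens, 3.91, 4.05 and 3.89 in sham spleens and a difference of 0.24 ± 0.19.

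The G1 to S genes and those of nucleotide supply were separated without overlap in 3 of 3 and 5 of 5 members, with medians of -1.03 and -0.74. Tyms read 6.99, 7.73 and 7.54 in model spleens and 8.35, 8.39 and 8.64 in sham spleens (difference -1.04 ± 0.30, adjusted p = 0.294). Ccne2 differed by -1.13 and Ccne1 by -1.03, E2f1 by only -0.22. The other nucleotide genes ranged from Dut (-0.80) and Rrm2 (-0.74) to Rrm1, the large reductase subunit (-0.55), and the thymidine kinase gene Tk1 (-0.53).

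Differences were smallest in the genes of licensing and the fork, with a median of -0.34 and 3 of 9 members without overlap. Cdc6, which loads the helicase, differed by -0.85, Gins1, of the active helicase, by -0.70, and Pcna, the sliding clamp of the polymerases, by -0.63. The helicase genes were closer, at -0.34 for Mcm7, -0.33 for Mcm2, -0.32 for Mcm6 and -0.19 for Mcm5, as was the loader Cdt1 at -0.16. In Mcm2, model rat 2 (8.26) exceeded the highest sham spleen (8.20), and in Mcm6 it did so too (7.90 against 7.87).

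**Figure D2:**
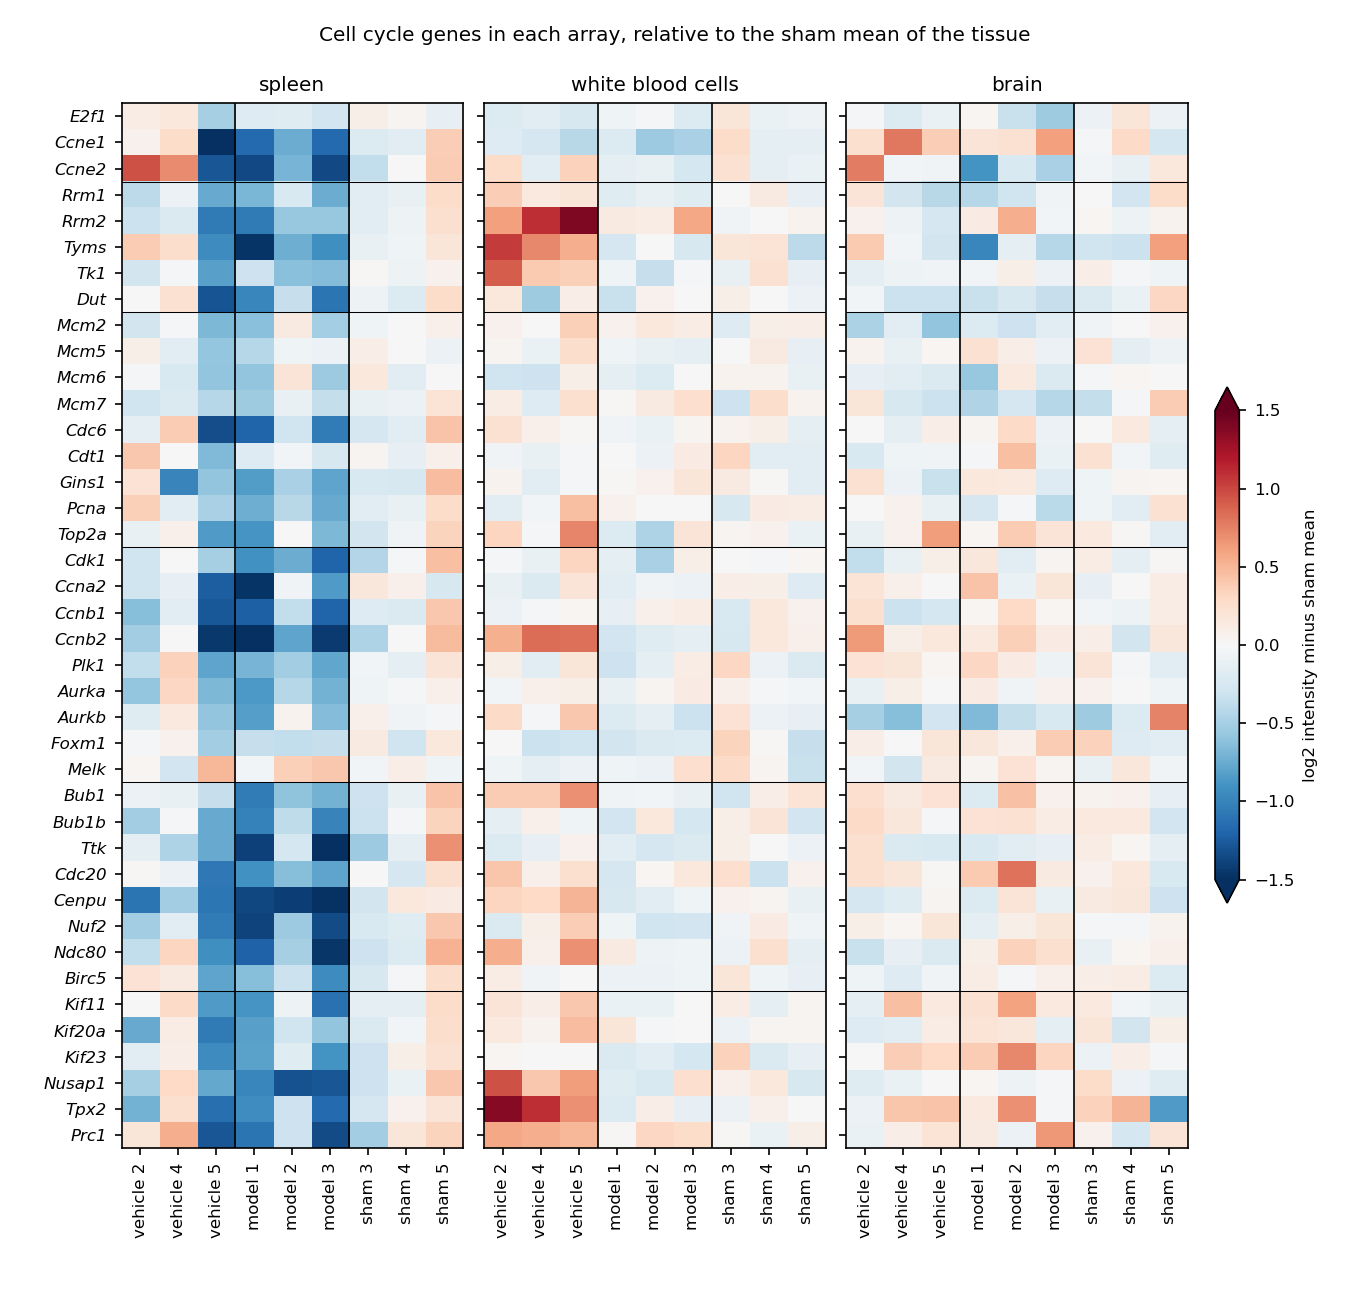
Log2 intensity minus the sham mean of the tissue (colour scale, cut at 1.5 either way) for the 40 members in rows, by role, and the 27 arrays in columns, with vehicle, model and sham rats of spleen, white blood cells and brain. Model rats 1 and 3 and vehicle rat 5 are low in the spleen almost throughout, model rat 2 less so, and vehicle rats 2 and 4 lie near the sham mean.

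The rats of each group did not move as 1 block. The number of members below the lowest sham spleen was 39 of 40 in model rat 1 (23.2% of all genes), 27 in model rat 2 (9.29%) and 38 in model rat 3 (25.4%). In vehicle rats it was 18 in rat 2 (20.2% of all genes), 7 in rat 4 (31.8%) and 39 in rat 5 (29.3%). The members' median distance from the sham mean was -0.16, 0.01 and -0.80 in vehicle rats 2, 4 and 5, and -0.90, -0.35 and -0.83 in model rats 1, 2 and 3. Sham rats 3, 4 and 5 lay at -0.18, -0.08 and 0.26. Vehicle rat 5 was thus as low as the lowest model rats, while the other vehicle rats overlapped the sham range.

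Markers of red cell precursors moved with the members in the spleen. Of 20 listed markers, such as the globin chaperone gene Ahsp and the transcription factor genes Gata1 and Klf1, 16 were measured, 0 were called in any spleen comparison, and all 16 were below 0 between model and sham spleens, with a median of -0.87. Their median distance from the sham mean was -0.14, 0.40 and -1.72 in vehicle rats 2, 4 and 5, -0.95, -0.24 and -1.38 in model rats 1, 2 and 3, and -0.39, 0.18 and 0.23 in sham rats 3, 4 and 5. Their summed linear intensity ranged from 4869 to 19196 in vehicle, 5492 to 12378 in model and 11357 to 17605 in sham spleens. The spleens low in cell cycle genes, those of vehicle rat 5 and model rats 1 and 3, were also the lowest in these markers. B cell markers were not lower in model spleens (median 0.12, 7 of 7 above 0), nor were T cell markers (0.27, 11 of 11 above 0), and 0 of either were called. The part of the red cell precursors in the members' levels was not tested.

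**Figure D3:**
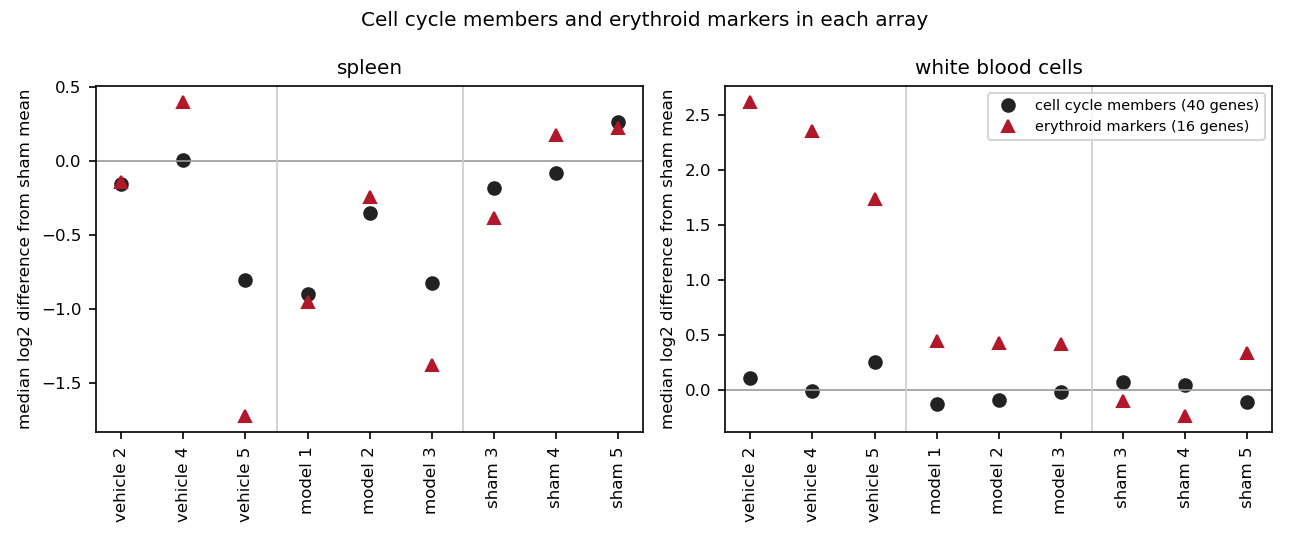
Median log2 difference from the sham mean of the tissue (vertical axis) for the 40 cell cycle members (circles) and 16 erythroid markers (triangles) in each array of spleen and of white blood cells, with vehicle, model and sham rats from left to right. In the spleen both are lowest in vehicle rat 5 and model rats 1 and 3. In white blood cells the erythroid markers of vehicle rats lie at 1.74 or more, while the members' medians run from -0.13 (model rat 1) to 0.25 (vehicle rat 5).

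The wider lists followed in part. Between model and sham spleens 0 of 43 other mitosis genes were called, with a median of -0.60, 40 below 0, 27 at an unadjusted p under 0.05 and 18 without overlap. Over all genes, 2.74% had an unadjusted p under 0.05 with model lower and 6.76% with model higher. Without overlap, 3.96% of all genes were lower and 13.4% higher. The counts of this list and the next are not split by direction here. Other replication genes had 0 of 37 called, a median of -0.22, 11 at an unadjusted p under 0.05 and 12 without overlap. The smallest p among them was that of Prim1, the catalytic subunit of DNA primase, at 6.63 ± 0.26 in model and 7.68 ± 0.13 in sham spleens (SD, n = 3 each), a difference of -1.05 ± 0.17 (SE, limma, adjusted p = 0.069). Among mitosis genes Hmmr, a spindle protein, differed by -1.19 ± 0.23 (adjusted p = 0.142). The G1 list (median -0.09) and the inhibitors (median 0.04) had 0 called.

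**Figure D4:**
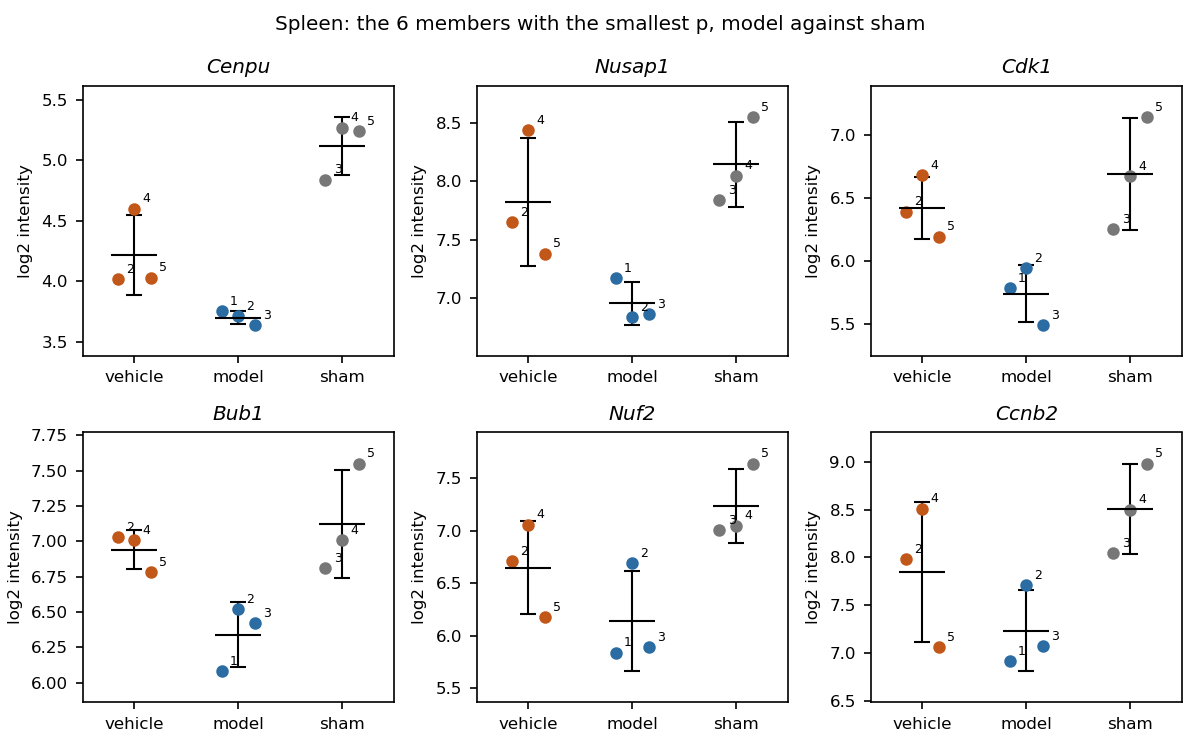
Log2 intensity (vertical axis) in each spleen of vehicle, model and sham rats for the 6 members with the smallest p between model and sham. Points are arrays with their rat number, horizontal bars are group means, and whiskers are the SD of 3 arrays. All model points lie below all sham points, while the vehicle points of Cenpu alone lie between the other groups without overlap.

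Vehicle spleens stood between the other groups on average, with a wide spread. Between vehicle and sham spleens 0 members were called (0.0414% of all genes were higher and 0.00689% lower by this test), the median was -0.32 and 38 of 40 were below 0. An unadjusted p under 0.05 was found in 6 members with vehicle lower and 0 with vehicle higher (4.56% and 4.79% of all genes). Cenpu read 4.02, 4.60 and 4.03 in vehicle spleens, all below the sham spleens (4.84 to 5.27), and differed by -0.90 ± 0.17 (SE, limma, adjusted p = 0.134). Without vehicle rat 4 the difference was -1.09 (adjusted p = 0.0365), and in the fit of all 27 arrays it had an adjusted p of 0.0103. Rrm2 read 8.90, 9.01 and 8.16 in vehicle spleens, against 9.06, 9.15 and 9.46 in sham spleens, and differed by -0.53 ± 0.22 (adjusted p = 0.484). Ccnb1 differed by -0.69 ± 0.29 (adjusted p = 0.489) with overlap. Groups did not overlap in 3 members, Cenpu, Rrm2 and Mcm7, each lower in vehicle spleens (5.69% of all genes did so), and 0 were higher without overlap (7.49% of all genes).

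Between vehicle and model spleens 0 members were called and 0 of all genes were called in either direction. The median was 0.36, 37 members were above 0, 8 had an unadjusted p under 0.05 with vehicle higher (2.96% of all genes), and 4 did not overlap (3.5% of all genes), namely Nusap1, Cdk1, Bub1 and Cenpu. With vehicle lower, 0 members passed either criterion (9.95% of all genes by the unadjusted p and 11.2% without overlap). Nusap1 read 7.65, 8.44 and 7.38 in vehicle spleens against 7.17, 6.84 and 6.86 in model spleens, a difference of 0.87 ± 0.25 (adjusted p = 0.201). Cdk1 differed by 0.68 ± 0.21 and Bub1 by 0.60 ± 0.19 (adjusted p = 0.217 each). The spread within the vehicle group came largely from rat 5: Ccne2 read 8.56, 8.32 and 6.33 in vehicle rats 2, 4 and 5, and the first pair lay above all 3 sham spleens (7.24, 7.60 and 7.99) while rat 5 lay below them. Without vehicle rat 5, 5 members were called higher in vehicle than in model spleens, namely Ccne2 (1.96), Tyms (1.36), Ccne1 (1.20), Cdc20 (0.75) and Nusap1 (1.09). The share of all genes called without that rat is not given here, so this count has no background beside it.

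In white blood cells the vehicle rats, not the model rats, stood apart, and the members that moved were higher. Against model rats, 4 of 40 members rose in vehicle rats (1.26% of all genes did), namely Tpx2, Ccnb2, Tyms and Cenpu, and 0 fell (0.296% of all genes). Against sham rats 5 rose (1.58% of all genes), namely Tpx2, Rrm2, Ccnb2, Prc1 and Tyms, and 0 fell (0.427%). Both comparisons share the vehicle arrays. The median over all 40 members was 0.17 against model rats and 0.08 against sham rats, where all genes had medians of -0.02 and -0.06. Against sham rats it was 0.15 after quantile normalization and 0.14 after median centring. Groups did not overlap, with vehicle higher, in 14 members against model rats (8.52% of all genes) and in 11 against sham rats (5.38%). The count against sham rats was 17 without sham rat 3, where fewer arrays make overlap less likely in any gene. The share of all genes in that setting is not given here. With vehicle lower, 0 members were without overlap against model rats (10.4% of all genes) and 2 against sham rats (9.89%).

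Tpx2 read 6.06, 5.80 and 5.38 in the white blood cells of vehicle rats 2, 4 and 5, 4.49, 4.79 and 4.57 in those of model rats 1, 2 and 3, and 4.60, 4.77 and 4.70 in those of sham rats 3, 4 and 5. All vehicle values lay above all others, and model and sham values overlapped. Tpx2 rose in vehicle rats by 1.13 ± 0.16 (SE) against model rats (adjusted p = 0.00165) and by 1.06 ± 0.16 against sham rats (adjusted p = 0.0021), about 2.19-fold and 2.08-fold. Ccnb2 read 5.52, 5.83 and 5.82 in vehicle, 4.70, 4.81 and 4.86 in model and 4.75, 5.15 and 5.07 in sham rats. The vehicle values were again the highest, with no overlap. Ccnb2 rose by 0.93 ± 0.13 against model rats (adjusted p = 0.00208) and by 0.73 ± 0.13 against sham rats (adjusted p = 0.0101).

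Rrm2 read 6.71, 7.21 and 7.50 in vehicle, 6.24, 6.21 and 6.68 in model and 6.05, 6.10 and 6.15 in sham white blood cells. Model rat 3 nearly reached vehicle rat 2, while the sham rats were tightly grouped and low. Rrm2 rose by 1.04 ± 0.18 against sham rats (adjusted p = 0.00735), and its difference from model rats was 0.76 ± 0.18 (adjusted p = 0.0601). Tyms read 5.96, 5.63 and 5.46 in vehicle, 4.66, 4.91 and 4.67 in model and 5.10, 5.12 and 4.52 in sham rats, with every vehicle value above the rest. It rose by 0.94 ± 0.17 against model rats (adjusted p = 0.0138) and by 0.77 ± 0.17 against sham rats (adjusted p = 0.0384).

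Prc1 read 5.19, 5.15 and 5.11 in vehicle, 4.63, 4.92 and 4.88 in model and 4.62, 4.51 and 4.69 in sham white blood cells. It rose by 0.54 ± 0.11 against sham rats (adjusted p = 0.0263), and its difference from model rats was 0.34 ± 0.11 (adjusted p = 0.247). Cenpu read 3.45, 3.43 and 3.64 in vehicle, 2.89, 2.97 and 3.07 in model and 3.20, 3.18 and 3.02 in sham rats, rising by 0.53 ± 0.11 against model rats (adjusted p = 0.0322) with a difference of 0.37 ± 0.11 from sham rats (adjusted p = 0.14). In both genes the vehicle values did not overlap either group. Both genes were removed by the alternative filter at the 40th percentile of mean level in white blood cells.

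**Figure D5:**
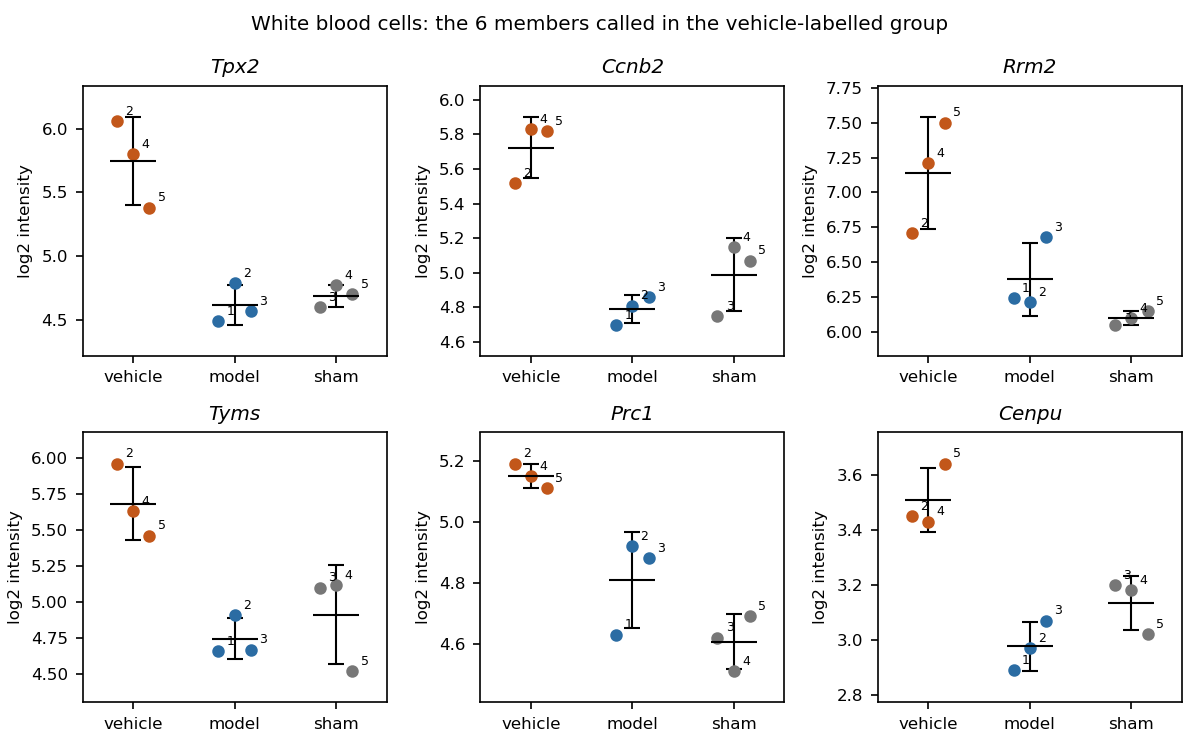
Log2 intensity (vertical axis) in the white blood cells of each vehicle, model and sham rat for the 6 members called in vehicle rats against model or sham rats. Points are arrays with their rat number, horizontal bars are group means, and whiskers are the SD of 3 arrays. The vehicle points lie above all others in each panel, with the narrowest gap in Rrm2 between vehicle rat 2 (6.71) and model rat 3 (6.68).

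Tpx2 in both comparisons, Ccnb2 against model rats and Rrm2 against sham rats were called whichever rat was left out. Ccnb2 against sham rats had an adjusted p of 0.0635 without vehicle rat 4. Tyms against model rats had 0.0846, 0.0534, 0.0751 and 0.0625 without vehicle rats 2 and 4 and model rats 1 and 3, and against sham rats 0.152, 0.11, 0.0611, 0.0502, 0.0547 and 0.0865 without vehicle rats 2 and 4, model rats 1 and 3 and sham rats 3 and 5. Prc1 against sham rats had 0.0965, 0.104, 0.0524, 0.052 and 0.105 without vehicle rats 2, 4 and 5 and sham rats 3 and 4. Cenpu against model rats had 0.0982, 0.0946, 0.0958, 0.194, 0.118 and 0.077 without vehicle rats 2, 4 and 5 and model rats 1, 2 and 3. In a fit of all 27 arrays, Tk1 alone was called against model rats (adjusted p = 0.0353) and Rrm2 alone against sham rats (adjusted p = 0.00705).

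Among the members not called in either comparison, some differed little in vehicle white blood cells and others stood apart without overlap. Cdk1 differed by 0.25 from model and 0.06 from sham rats, Ccnb1 by -0.05 and -0.03, Mcm2 by 0.02 and 0.14, Mcm7 by -0.08 and 0.05, and Pcna by 0.07 and 0.09. Tk1 (0.70 and 0.55), Nusap1 (0.71 and 0.66) and Bub1 (0.55 and 0.48) did not overlap either group and were not called, with adjusted p between 0.0514 and 0.127. E2f1 (-0.20) and Ccne1 (-0.29) were lower in vehicle than in sham rats without overlap, and neither was called.

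The wider lists also held genes that rose in vehicle rats. Of 43 other mitosis genes 6 rose in vehicle against model white blood cells, namely Cdc25b, Dlgap5, Hmmr, Kif4a, Pttg1 and Ect2, and 4 rose against sham rats, namely Cdc25b, Dlgap5, Pttg1 and Cenpk. Cdc25b, a phosphatase that activates Cdk1, averaged 10.99 ± 0.32 in vehicle, 9.82 ± 0.14 in model and 9.33 ± 0.10 in sham rats (SD, n = 3 each). Pttg1, the securin that holds back anaphase, averaged 7.25 ± 0.94, 5.52 ± 0.30 and 5.31 ± 0.53 in the same order. Of 37 other replication genes 0 were called in limma in either comparison. In the G1 list Tfdp2, a partner of E2F factors, rose by 2.13 ± 0.24 against model and 2.83 ± 0.24 against sham rats. In the list of inhibitors Fzr1, an activator of the anaphase-promoting complex, rose by 1.64 ± 0.20 and 2.19 ± 0.20, and Gadd45a, a stress-induced gene, by 0.99 ± 0.17 against model rats.

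Red cell markers rose in the same arrays. Of 16 measured erythroid markers 13 were called higher in vehicle than in model white blood cells, with a median of 1.71, and 12 higher than in sham, with a median of 2.24. Their summed linear intensity ranged from 10274 to 18340.5 in vehicle, 4182 to 4535 in model and 2489 to 3931 in sham rats. Ahsp, which is specific to red cell precursors, averaged 10.33 ± 0.33 in vehicle, 7.70 ± 0.25 in model and 7.14 ± 0.94 in sham rats (SD, n = 3 each). The neutrophil granule genes Lcn2, Ngp and Camp also rose against both groups, and the other genes of that written list are not described here. Of 10 mature neutrophil markers, 1 rose against model and 6 against sham rats. The part of these cells in the rise of the members was not tested.

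Between model and sham white blood cells 0 members were called, and 0 of all genes were called either way. An unadjusted p under 0.05 was found in 1 member with model lower and 0 with model higher (3.46% and 2.61% of all genes). The members' median was -0.09 against -0.04 over all genes, and it was -0.04 after quantile normalization and -0.05 after median centring. The smallest p was that of Ccne1, with 4.46, 4.12 and 4.18 in model and 4.94, 4.54 and 4.53 in sham rats, a difference of -0.42 ± 0.14 (SE, limma, adjusted p = 0.665). Ttk (-0.21 ± 0.11, adjusted p = 0.823) and Prc1 (0.20 ± 0.11, adjusted p = 0.849) came next. The wider lists had 0 called.

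In the brain 0 members were called in any comparison. Between model and sham brains 1.08% of all genes were called higher and 0.0758% lower, between vehicle and sham brains 0.0483% and 0%, and between vehicle and model brains 0.00689% and 0.0483%. The members' median difference was -0.08 between vehicle and model, -0.04 between vehicle and sham and 0.08 between model and sham brains. After quantile normalization these were 0.03, -0.06 and -0.02, so the median has no settled sign in 2 of the 3 comparisons. An unadjusted p under 0.05 was found between vehicle and model brains in 1 member with vehicle higher and 1 lower (7.13% and 7.21% of all genes), between vehicle and sham brains in 1 and 1 (5.89% and 3.44%), and between model and sham brains in 2 and 0 (7.53% and 6.84%). Members without overlap numbered 1 higher and 2 lower between vehicle and model (10% and 11.5% of all genes), 1 and 3 between vehicle and sham (7.93% and 5.45%), and 2 and 3 between model and sham brains (11.7% and 8.34%). Each share of the members was below that of all genes, apart from the 3 members lower without overlap in vehicle than in sham brains.

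Kif23, a motor of cytokinesis, had the smallest p between model and sham brains, with 4.39, 4.73 and 4.33 in model against 3.92, 4.11 and 3.99 in sham rats and a difference of 0.48 ± 0.15 (SE, limma, adjusted p = 0.192). Cdc20 differed by 0.44 ± 0.18 (adjusted p = 0.311) and Ccne2 by -0.54 ± 0.24 (adjusted p = 0.348). Between vehicle and sham brains Mcm2 read 4.82, 5.12 and 4.70 against 5.24, 5.28 and 5.35, a difference of -0.41 ± 0.13 (adjusted p = 0.327). Ccne1 (0.47 ± 0.19, adjusted p = 0.502) and Ndc80 (-0.22 ± 0.12, adjusted p = 0.609) followed. Between vehicle and model brains Ndc80 read 3.16, 3.37 and 3.27 against 3.58, 3.84 and 3.73, a difference of -0.45 ± 0.12 (adjusted p = 0.178), while Ccne2 differed by 0.76 ± 0.24 (adjusted p = 0.239) and Rrm2 by -0.30 ± 0.16 (adjusted p = 0.421). The groups of Kif23, Mcm2 and Ndc80 did not overlap in these comparisons. Of the genes named here, all but Ccne1 were removed by the alternative filter at the 40th percentile of mean level in brain. How far such low readings limited the calls in brain was not tested.

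Regulators outside the set did move in the brain. Gadd45b and Gadd45g, stress-induced genes that restrain the cycle, rose in model against sham brains by 2.17 ± 0.28 and 1.83 ± 0.30 (limma, adjusted p = 0.0063 and 0.0225), and Cdkn1a, the inhibitor p21 of cyclin-dependent kinases, by 1.23 ± 0.24 (adjusted p = 0.0466). They were 3 of 15 inhibitors called. Myc, a transcription factor of growth, rose by 1.12 ± 0.19 (adjusted p = 0.0247) and was 1 of 16 in the G1 list. None of 43 other mitosis and 37 other replication genes was called.

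Interaction contrasts over the 27 arrays asked in which members a difference between groups was itself unequal in 2 tissues. The difference between model and sham rats in Cenpu was -1.42 in spleen and -0.04 in brain, and these differed by -1.37 ± 0.22 (SE, limma, adjusted p = 0.00101, with 0.689% of all genes called lower). Between spleen and white blood cells it differed by -1.26 ± 0.22 (adjusted p = 0.0855). Cenpu read low in every brain array (2.57 to 3.07) and every white blood cell array (2.89 to 3.64). How far so low a reading could still fall was not tested. For vehicle against sham rats, spleen and white blood cells were called as unequal in 2 members. The difference was -0.90 in spleen and 0.37 in white blood cells for Cenpu, neither of them called within its tissue, and -0.53 (not called) and 1.04 for Rrm2. For Cenpu these differed by -1.27 ± 0.22 (adjusted p = 0.00341) and for Rrm2 by -1.57 ± 0.30 (adjusted p = 0.00678, with 0.724% of all genes called lower). Without sham rat 4 the adjusted p was 0.058 for Cenpu and 0.067 for Rrm2, and for Rrm2 it was 0.059 without sham rat 5 and 0.0511 without vehicle rat 5. Without vehicle rat 4, 7 members were called in this comparison, each with a negative difference. The share of all genes called in that refit is not given here. In the main fit, that of all rats on the values as deposited, no other member was called for a difference between tissues. These contrasts leave out that each rat gave 3 arrays, whose residuals correlated between -0.0584 and 0.517 over 27 pairs of tissues, 15 of them above 0.1. With the rat as a block the 3 calls stood (adjusted p = 0.00345 for Cenpu in spleen and brain, and 0.005 for Cenpu and 0.0123 for Rrm2 in spleen and white blood cells), and Cdc20 was called as well for model against sham rats in spleen and brain (-1.22 ± 0.28, limma, adjusted p = 0.046).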

How the data were processed

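Per the labels' protocols, total RNA (Qiagen kit) was reverse transcribed, amplified, biotin-labelled and hybridized to Affymetrix rat Gene arrays. Per the submitters' processing notes the authors used RMA, in a version not given in the sources used here. The deposited values, 1.53 to 13.49, were taken to be on a log2 scale from their range, and whether tissues were normalized together is not stated. Of 27596 probes, 15310 had 1 symbol in the probe table, 323 several and 11963 none. The probe with the highest mean was kept for each of 14506 genes. No normalization was added.

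limma 3.58.1 (R 4.3.3; lmFit, eBayes, 2-sided) was fitted per tissue over 9 arrays (6 residual degrees of freedom), and over all 27 arrays (18) for tissue and interaction contrasts, with Benjamini-Hochberg adjustment over all genes. The procedure was tested on simulated data. The members and lists were chosen with earlier results of these data known. Members called, or else the 3 with the smallest p, are named with their values; the rule's members of highest and lowest level are left out, because probes are not comparable, and others serve as examples. Rat numbers link the tissues of a rat, which the fit of 27 arrays takes as independent, with the rat as a block as an alternative. They do not pair rats across groups: residuals of same-numbered arrays correlated between -0.474 and 0.377, 2 of 12 pairs above 0.1. Alternatives covered scaling, filter, probes, weights, block, arrays in the fit and each rat left out. Precision is limited by 3 arrays per group.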

Additional observations from a re-analysis of the deposited data

Results flagged for a closer look

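Differences between groups that themselves differed between tissues were found in 3 cases, each by the interaction contrast of limma over all 27 arrays. Between model and sham rats Cenpu differed by -1.42 in spleen and by -0.04 in brain, and the difference of differences was -1.37 ± 0.22 (SE, adjusted p = 0.00101). It stayed called whichever rat was left out, between -1.58 and -1.16. Cenpu read only 2.57 to 3.07 in the brain arrays, and how far it could still fall there was not tested. For vehicle against sham rats, spleen and white blood cells differed by -1.27 ± 0.22 in Cenpu (adjusted p = 0.00341) and by -1.57 ± 0.30 in Rrm2 (adjusted p = 0.00678), with a lower level in spleen and a higher one in white blood cells in both genes. Erythroid markers differed in the same direction between these tissues, 9 of 16 being called with a median of -2.87, and their part was not tested.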

How the results depend on the processing

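Numbers of members called depended on the fit. Model against sham spleens (1 called) gave 6 with all 27 arrays in 1 fit, 11 with array weights, 2 with only the groups compared, and 0 with median centring, with the filter at the 40th percentile (which removed Cenpu), or without model 2 and vehicle 2 together, and 0 to 2 when each rat was left out. Vehicle against sham spleens (0) gave 1 with all 27 arrays and 0 to 1 by leaving out a rat, and vehicle against model spleens (0) gave 0 to 5. Vehicle against model white blood cells (4) gave 1 with all 27 arrays, 9 with array weights and 2 to 5 by leaving out a rat. Vehicle against sham white blood cells (5) gave 1 with all 27 arrays, 3 with only the groups compared and 2 to 5 by leaving out a rat, and the 11 members without overlap became 17 without sham rat 3. The filter left 21 members, all 21 called higher in sham spleen than in white blood cells and in brain. White blood cells against brain gave 14 to 17 by leaving out a sham rat. For differences between tissues, model against sham in spleen and brain (1) gave 3 with median centring, 0 with the filter and 1 to 6 by leaving out a rat. In spleen and white blood cells it gave 1 with quantile normalization (0 otherwise). Vehicle against sham in spleen and white blood cells (2) gave 1 with the filter and 0 to 7 by leaving out a rat, and in white blood cells and brain (0) 1 with median centring and 0 to 1. Vehicle against model in spleen and brain (0) gave 0 to 7. With the replicate block within a tissue, which the numbers do not warrant, counts were 0 for model against sham spleens, and 0 and 1 for vehicle against model and sham white blood cells. With the rat as a replicate block across tissues, model against sham in spleen and brain gave 2, and no other call between tissues changed side among the members named. The other counts stayed within 1.5 times. Shares of all genes called, or without overlap, under these alternatives are not given here, so the counts have no background beside them. Over 52 single-member results, 766 of 828 values under an alternative kept direction and call, 53 lost the call, 9 gained it and 0 reversed. Most of these results were not called in the main fit, where keeping the call means staying uncalled. All 53 losses fell among the results called there. Cenpu between model and sham spleens, for example, lost its call in 6 of 9 refits without 1 rat and in 3 of 9 other settings. Unless stated, the cause was not tested.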

Other observations

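A second probe was present for 3 members. In white blood cells the second probe of Rrm2 averaged 6.42 in vehicle, 5.70 in model and 5.46 in sham rats, and that of Ccnb2 5.68, 4.76 and 4.96, the same order as the probes used. In spleen the second probe of Rrm2 averaged 8.05, 7.84 and 8.59 in vehicle, model and sham rats and that of Ccnb2 7.88, 7.14 and 8.54. The second probe of Rrm1 lay between 2.63 and 3.27 in all 9 groups, far below the probe used (6.78 to 9.64), and showed no tissue difference of that kind.

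Germinal centre B cell markers, which mark the dividing B cells of the spleen, did not follow the cell cycle members there. Of 6 listed, 4 were measured, and their median distance from the sham mean was 0.08, -0.05 and 0.03 in vehicle rats 2, 4 and 5, 0.23, 0.50 and 0.35 in model rats 1, 2 and 3, and 0.17, 0.05 and -0.18 in sham rats 3, 4 and 5. None was called in limma, and 2 had an unadjusted p under 0.05 with model above sham. The T cell and B cell markers of the spleen were lowest in vehicle rat 4, at -0.95 and -0.82.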
